A study of Mus musculus with 4 samples.

Results

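Neurons_2 is a cluster of neuronal nuclei that the authors separated from the bulk of hypothalamic neurons in mouse hypothalamus, and its members are the nuclei with that name in the deposited annotation. It holds 1.53% of 56386 annotated nuclei, and all but 12 of them came from the TRα1+m library of repeat 2, where they were 7.11% of 11976 nuclei. The 12 others were 5 nuclei of wild type repeat 1, 1 of wild type repeat 2 and 6 of TRα1+m repeat 1. Single-nucleus RNA was measured in dissected, snap-frozen hypothalamus of adult male mice on a C57/BL6NCr background, either wild type or heterozygous for the R384C mutation of thyroid hormone receptor α1 (TRα1+m). Each genotype has 2 libraries, each of nuclei pooled from 3 mice, so a library is a pool and its mice cannot be told apart. The kept nuclei of the libraries held 51877331 and 59112785 UMIs (wild type, repeats 1 and 2) and 55366391 and 47260127 UMIs (TRα1+m, repeats 1 and 2), where a UMI, or unique molecular identifier, stands for a single captured transcript. With nearly all nuclei in a single pool there is no replicate of the cluster, its genotype cannot be told apart from its library, and no difference below is read as an effect of the mutation. The paper judged this cluster to be an artifact of the experiment, given its uneven spread over the repeats. It was left out of the paper's later analyses. Whether the cluster is an artifact was not tested here.

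The working label of these nuclei is olfactory-like interneurons, with Meis2, Tshz1, Pbx3 and Synpr as markers. Interneurons of the olfactory bulb are mostly GABAergic granule and periglomerular cells, which are born from progenitors of the lateral ganglionic eminence and the walls of the lateral ventricle throughout life and migrate forward into the bulb. Their lineage is marked by homeodomain factors of the Dlx, Meis and Pbx families and by the zinc finger factors Sp8 and Tshz1, and granule cells signal to mitral and tufted cells through dendrites and have no axon. Several of these factors also mark neurons of the striatum and the intercalated cells of the amygdala, so that markers of those neurons and of the hypothalamus itself were examined beside them.

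In the TRα1+m library of repeat 2 the cluster was 7.11% of 11976 nuclei (95% interval 6.66 to 7.59, Clopper-Pearson), against 57.0% for Neurons_1, the main neuronal cluster with 6824 nuclei. These nuclei held 2813558 UMIs, with a median of 2712 UMIs and 1534 genes a nucleus and a range of 971 to 44677 UMIs. Neurons_1 of the same library held 35615980 UMIs, with a median of 4833.5 UMIs and 2540 genes. The median share of mitochondrial UMIs was 0.888% in Neurons_2 and 0.624% in Neurons_1. Levels are given as CPM, a gene's UMIs for every 1000000 UMIs summed over a population, and intervals in parentheses are 95% limits that cover counting error only. Since the clusters were drawn from the same genes, differences between Neurons_2 and Neurons_1 are described without a test. The spread between libraries is given by the level of Neurons_1 in each of the 4 libraries.

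Meis2, a homeodomain factor of the TALE class, set the cluster apart most clearly among the label markers. Its summed level was 3615 CPM in Neurons_2, against 62.5 and 28.8 CPM in Neurons_1 of the wild-type libraries and 85.6 and 55.5 CPM in Neurons_1 of the TRα1+m libraries (repeats 1 and 2). The level was thus 65.1-fold that of Neurons_1 in the same library (62.1 to 68.4), and no library of Neurons_1 came near it. Meis2 lies on the minus strand of chromosome 2 at 115863064 to 116065839 (GRCm38). Pbx3, a partner of Meis factors on DNA whose gene lies elsewhere on chromosome 2 (34171457 to 34373142, minus strand), was at 2287 CPM against 169 CPM (13.5-fold, 13.03 to 13.99) and at 167 to 220 CPM over the 4 Neurons_1 libraries. Tshz1, a teashirt zinc finger factor needed for the migration of olfactory interneurons, was at 482 CPM against 23.6 CPM (20.4-fold, 18.7 to 22.3), with 22.04 to 24.52 CPM over the 4 libraries. Synpr encodes synaptoporin, a synaptic vesicle protein, and lies on chromosome 14 at 13284780 to 13616340 on the plus strand. It stood at 1307 CPM against 157 CPM (8.35-fold, 8.004 to 8.702), with 120 to 157 CPM over the 4 libraries. For each of these genes Neurons_2 lay above all 4 Neurons_1 libraries, and Meis2 varied most between those libraries.

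**Figure D1:**
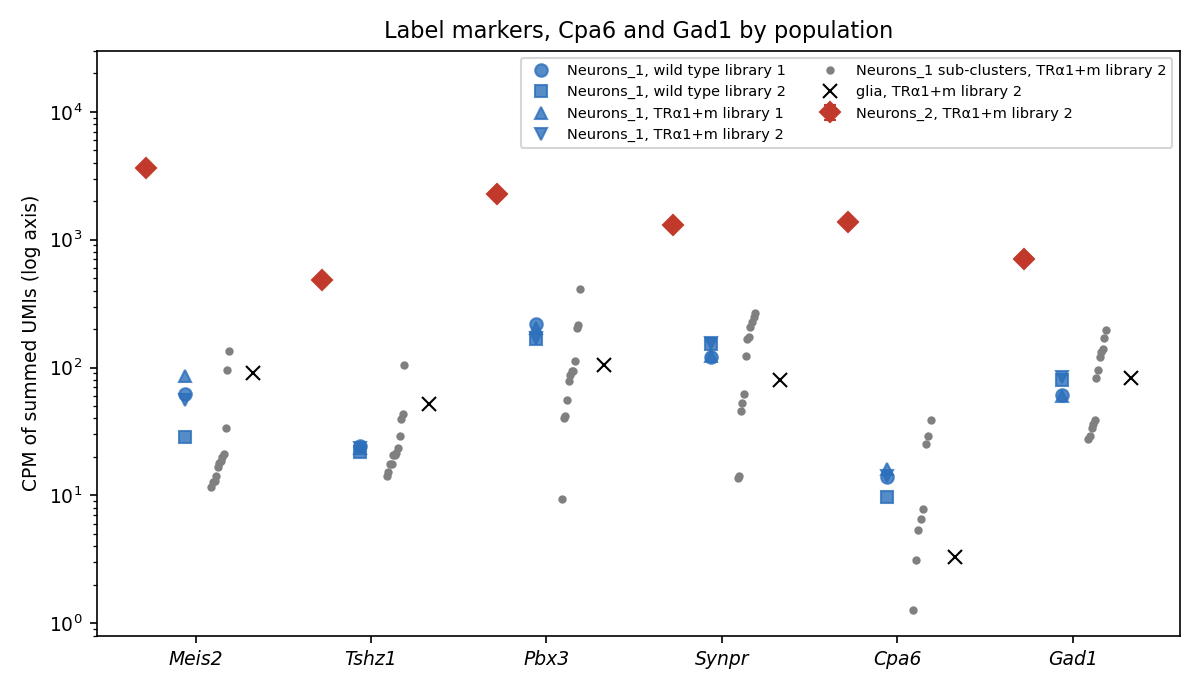
Summed level (CPM, log axis) of the label markers, Cpa6 and Gad1 in Neurons_2 of the second TRα1+m library (diamonds, with 95% Poisson intervals mostly smaller than the symbol), Neurons_1 of each of the 4 libraries, the Neurons_1 sub-clusters of at least 20 nuclei (a level of 0 is not drawn) and the pooled glia. For Meis2, 3615 CPM in Neurons_2 lies above 134 CPM in the highest of 12 sub-clusters.

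Among 12 Neurons_1 sub-clusters of at least 20 nuclei in the same library, the highest level of Meis2 was 134 CPM (MCH neurons), that of Tshz1 104 CPM (oxytocin and vasopressin neurons), that of Pbx3 409 CPM (Glutamatergic Neurons_3) and that of Synpr 269 CPM (vasopressin neurons). All lay below Neurons_2. Within the cluster the markers were often detected together. All 4 were detected in 402 nuclei (47.2%, 43.8 to 50.6), 3 in 308, 2 in 112, 1 in 25 and none in 5. Of the Neurons_1 nuclei of that library, which were deeper, 23 of 6824 carried all 4 (0.337%, 0.214 to 0.505). With each nucleus thinned to 1500 UMIs, Meis2 was found in 96.7% of 797 Neurons_2 nuclei and 4.69% of 6615 Neurons_1 nuclei, Pbx3 in 82.4% and 15.2%, Synpr in 67.1% and 15.9%, and Tshz1 in 42.5% and 3.28%. All 4 markers were then found in 26.1% of Neurons_2 nuclei, after leaving out 55 and 209 shallower nuclei.

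Over the whole transcriptome, 10808 genes had at least 10 CPM in either population. Of these, 763 were at least 2-fold higher in Neurons_2 (7.06%) and 1610 at least 2-fold lower (14.9%), and these shares are the background for every gene list below. At least 10-fold differences numbered 97 higher and 167 lower. The median log2 ratio was -0.19 and 32.2% of the calls were on the higher side. With trimmed-mean (TMM) factors in place of total UMIs the median was 0.013, 1010 genes were higher and 1300 lower, and 43.7% of the calls were on the higher side. Against all 4 Neurons_1 libraries at once, 621 genes were at least 2-fold higher and 1112 at least 2-fold lower. Of the 763 higher genes, 9 lay within the range that Neurons_1 covered between libraries. Against the GABA sub-cluster of Neurons_1, which shares its transmitter with these nuclei, 803 genes were higher (7.44% of 10786) and 1629 lower (15.1%). The genes called in both comparisons numbered 718 higher and 1468 lower. A set of 211 genes stood at least 2-fold above each of the 12 sub-clusters.

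**Figure D2:**
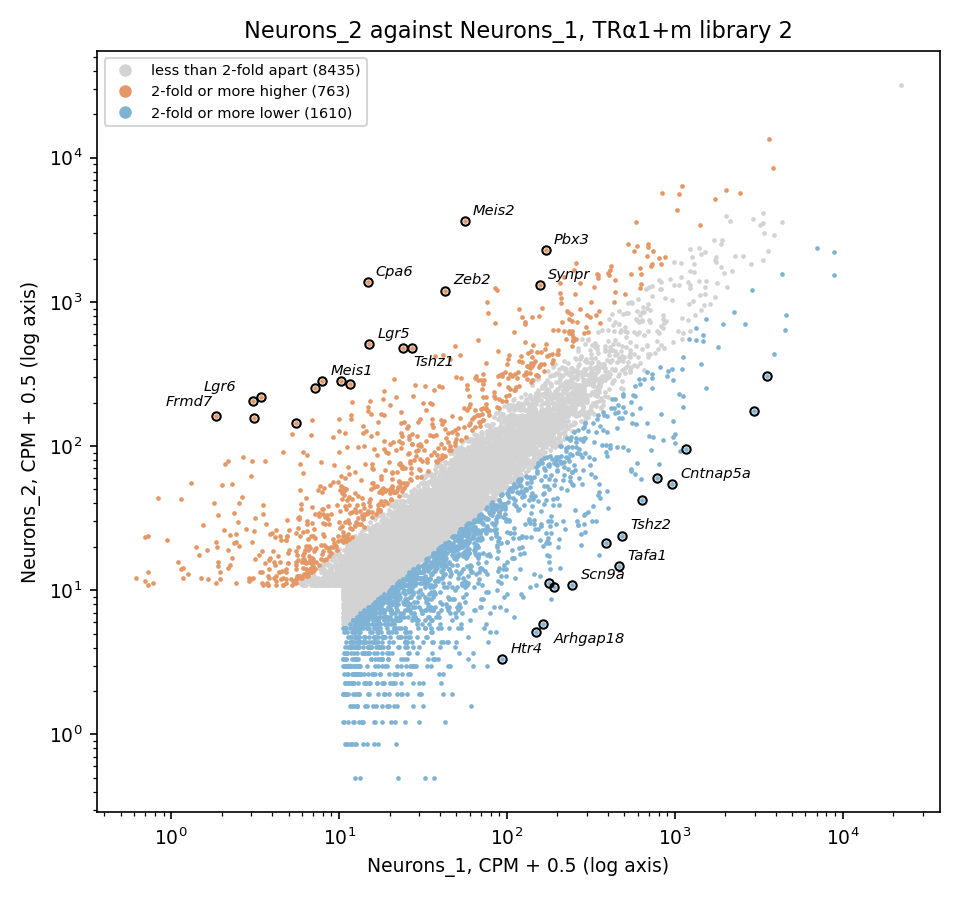
Level of each of 10808 genes in Neurons_2 against Neurons_1 of the second TRα1+m library, both as CPM + 0.5 on log axes, with genes 2-fold apart in colour and the genes named by rule circled. The 763 higher genes include Cpa6 at 1371 CPM against 14.3 CPM, and the 1610 lower genes include Tafa1 at 14.2 CPM against 466 CPM.

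The gene that ranked first was Cpa6, a carboxypeptidase of the extracellular space (chromosome 1, 10324720 to 10719945). It stood at 1371 CPM in Neurons_2, and at 13.8, 9.75, 16.0 and 14.3 CPM in Neurons_1 of wild type 1, wild type 2, TRα1+m 1 and TRα1+m 2 (96.1-fold, 87.6 to 106). It was found in 70.3% of Neurons_2 nuclei and 4.65% of Neurons_1 nuclei, and in 64.5% and 1.59% at equal depth. The Neurons_1 sub-cluster with the most Cpa6 had 38.8 CPM. Lgr5 and Lgr6, receptors for R-spondins that raise Wnt signalling, followed the same pattern. Lgr5 was at 506 CPM against 14.6 CPM (34.6-fold) and 12.2 to 15.3 CPM over the libraries, and Lgr6 at 204 CPM against 2.58 CPM (79.1-fold). Frmd7, a cytoskeletal protein whose gene is mutated in congenital nystagmus, was at 161 CPM against 1.35 CPM (119-fold, 88.4 to 164). Lgr6 and Frmd7 stood at 2.58 CPM or less in Neurons_1 of all 4 libraries.

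Transcription factors among the leading genes besides Meis2 and Tshz1 were Zeb2, Meis1 and Pparg. Zeb2, a zinc finger homeobox repressor, was at 1197 CPM against 42.3 CPM (28.3-fold), and its highest Neurons_1 sub-cluster had 299 CPM. Meis1 was at 280 CPM against 7.38 CPM (37.9-fold), and Pparg, a nuclear receptor of lipid metabolism, at 252 CPM against 6.68 CPM (37.7-fold). The remaining leading genes encode a modulator of AMPA receptors (Shisa8, 220 against 2.95 CPM), triadin of the sarcoplasmic reticulum (Trdn, 157 against 2.61 CPM), an inward rectifier potassium channel (Kcnj4, 143 against 5.05 CPM), a secreted phospholipase (Pla2g3, 481 against 26.8 CPM), a matrix protease (Adamts19, 267 against 11.1 CPM) and a noncoding transcript (Dleu2, 283 against 9.83 CPM). Dleu2 was the least particular of these, since MCH neurons had 109 CPM.

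The lower genes were led by Tafa1, a secreted chemokine-like protein of the brain, at 14.2 CPM in Neurons_2 against 466 CPM in Neurons_1 (32.8-fold lower, 24.1 to 45.9) and 466 to 544 CPM over the 4 libraries. Tshz2, the relative of Tshz1, was at 23.5 CPM against 483 CPM (20.6-fold lower), so that these teashirt genes went opposite ways. Cntnap5a, an adhesion molecule of the neurexin superfamily, was at 54.0 CPM against 966 CPM (17.9-fold lower). Neurons_1 varied from 966 to 1093 CPM for Cntnap5a between libraries. Serotonin receptors were among the lower genes as well, with Htr2c at 20.6 against 389 CPM and Htr4 at 2.84 against 93.5 CPM. The sodium channel gene Scn9a was at 10.3 against 244 CPM, and Zfhx3, a homeobox factor of many hypothalamic neurons, at 41.9 against 634 CPM. The netrin receptors Unc5c and Unc5d stood at 59.4 against 778 CPM and 94.5 against 1158 CPM. The other leading lower genes were Arhgap18, Arhgap24, Samd5, Kif26b and Lingo2, of which Lingo2 was the most abundant (308 against 3552 CPM).

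Of 15 genes listed for olfactory bulb interneurons, 14 were at least 2-fold higher and 1, Calb1, was lower (50.8 against 103 CPM). Their median log2 ratio was 2.65, beside -0.19 over all genes tested. The list includes the 4 label markers, all of them higher (median 4.04), so the count and the median are not independent of the label. Without group 7 of the grouping given later, 14 of 15 were higher and none was lower. Without group 10, 13 of 14 that passed were higher. Sp8, a zinc finger factor of olfactory interneurons, was at 23.8 CPM against 1.74 CPM (13.7-fold, 9.54 to 19.6), and Pax6, a paired-box factor of periglomerular and granule cells, at 33.8 CPM against 1.85 CPM (18.2-fold). Etv1, an ETS factor of the same lineage, was at 174 CPM against 14.4 CPM (12.1-fold) and 14.4 to 24.4 CPM over the 4 libraries. Calretinin (Calb2) was at 107 against 48.5 CPM, and Th, the rate-limiting enzyme of dopamine synthesis, at 14.6 against 3.68 CPM. These factors were at low levels in absolute terms, with Sp8 detected in 7.16% of the nuclei and Th in 4.58%. Outside group 6 Calb2 was at 87.3 CPM, less than 2-fold above Neurons_1. Outside group 10 Th was at 9.63 CPM and missed the limit. Of 5 genes listed for dopamine neurons 3 passed, with Th higher and Ddc and Slc18a2 lower (median log2 ratio -1.52). Without group 10 none of that list was higher.

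All 5 Dlx transcripts that passed the limit were higher, namely Dlx1 (61.5 against 9.74 CPM), Dlx2, Dlx5, Dlx6 and the antisense transcript Dlx6os1 (419 against 36.7 CPM, 11.4-fold, 10.5 to 12.4). Dlx6os1 overlaps Dlx6, and reads of the pair may not be fully separable. Dlx3 and Dlx4 had no UMI among 2813558, where 3 UMIs would be 1.07 CPM. Dlx factors specify GABAergic neurons of the forebrain, and in the GABA sub-cluster of Neurons_1 Dlx1 was at 17.3 CPM and Dlx6os1 at 79.8 CPM. Of 9 genes of the TALE class that passed, 4 were higher, among them Meis1, Meis2 and Pbx3, and none lower. Meis3, Pbx2 and Pbx4 stood between 11.02 and 29.50 CPM and were less than 2-fold apart. The zinc finger gene Zic1 was at 29.1 against 10.3 CPM and Sp9 at 24.5 against 3.48 CPM.

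Neurons_2 carried the transcripts of a GABAergic neuron. Gad1, which makes most of the cell's GABA, was at 708 CPM, above 60.9, 79.6, 59.4 and 84.6 CPM in the 4 Neurons_1 libraries and 131 CPM in the GABA sub-cluster (8.38-fold over Neurons_1, 7.91 to 8.87). It was found in 76.2% of nuclei, against 13.8% to 18.6% in the glial clusters of that library, whose median depths were 1391.5 to 2594 UMIs. Among the sub-clusters the highest Gad1 level was 197 CPM (orexin neurons). Gad2 (287 CPM) and the vesicular GABA transporter Slc32a1 (246 CPM) were each about as high as in the GABA sub-cluster (265 and 223 CPM). Neurons_1 itself differed between repeats for Slc32a1, with 43.3 and 44.0 CPM in the libraries of repeat 1 and 108 and 109 CPM in those of repeat 2. Slc17a6, the vesicular glutamate transporter of hypothalamic neurons, was at 21.3 CPM against 173 CPM, and Slc17a7 was at 4.62 CPM.

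Markers of other neurons differed by list. For the striatum, Drd1 (1.07 against 5.08 CPM, 3 UMIs), Adora2a (1.07 against 0.309 CPM), Ppp1r1b (2.84 against 0.758 CPM) and Drd2 (3.20 against 10.5 CPM) were low in both populations. Pde10a, the most abundant listed gene, was at 613 against 607 CPM, and Bcl11b was higher (133 against 25.0 CPM). Over that list of 15 genes, 11 passed, 2 were higher and 4 lower, with a median log2 ratio of -0.85 and sums of 1197 against 1527 CPM. For the intercalated amygdala, 6 of 7 listed genes passed, 4 were higher and none lower, with a median log2 ratio of 2.58, close to the 2.65 of the olfactory bulb interneuron list. The lists share Meis2, Tshz1 and Pbx3, which are 3 of the 4 higher genes. The fourth was Penk, at 70.4 against 26.2 CPM, while Oprm1 was at 182 against 100.4 CPM and Foxp2 at 104 against 140.4 CPM. Of the Foxp2 UMIs, 235 of 294 came from group 8 (45 nuclei, from the grouping given later), without which Foxp2 was at 21.97 CPM and counted as lower. Of 5 mitral and tufted genes 1 passed, Reln, at 53.0 against 63.1 CPM, and was less than 2-fold apart. Without group 8, which held 56 Reln UMIs, Reln was at 34.6 CPM and still less than 2-fold apart. The list summed to 65.4 CPM in Neurons_2 and 75.8 CPM in Neurons_1, with Tbx21 at 0.711 against 1.18 CPM and Eomes at 2.13 against 1.40 CPM. Among genes of cortical excitatory neurons Emx1 had no UMI. Lhx6, which defines interneurons of the medial ganglionic eminence, had 1 UMI and Sst stood at 24.2 against 275 CPM. Of the 5 genes listed for the caudal eminence that passed, 3 were higher and 2 lower, with a median log2 ratio of 2.20. Adarb2 (2516 against 524 CPM, in 86.6% of nuclei), Vip (52.6 against 9.80 CPM) and Lamp5 (36.3 against 7.52 CPM) were higher in sum, although 131 of the Vip UMIs came from 6 nuclei of group 10 (33 nuclei). Without that group Vip was at 6.30 CPM and missed the limit, 2 genes were higher and 2 lower, and the median was 0.49. Prox1 (5.69 CPM) and Nr2f2 (14.6 CPM) were lower than in Neurons_1. The 7 listed Hox genes of the hindbrain and spinal cord had no UMI.

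Genes that pattern the hypothalamus were low in Neurons_2, though most were also scarce in Neurons_1. Of 21 such factors, 3 passed the limit of 10 CPM, 1 was lower and none higher. Sim1, which specifies paraventricular neurons, was at 4.98 against 52.7 CPM, Nkx2-1 at 7.82 against 13.7 CPM and Otp at 7.82 against 10.3 CPM. Across 4612 genes of at least 50 CPM in either population, the log2 profile of Neurons_2 correlated with the sub-clusters of Neurons_1 at Pearson r from 0.499 (oxytocin and vasopressin neurons) to 0.675 (MCH neurons), with 0.630 for GABA neurons. This is across genes of 1 library and carries no test. The MCH nuclei had a median of 1499 UMIs and 2.18% mitochondrial UMIs, the lowest depth and the highest mitochondrial share among the 12 sub-clusters. The part of depth in this order was not tested.

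Hypothalamic neuropeptides were mostly lower, with 16 of 21 measured genes at least 2-fold below Neurons_1, 2 above (Penk, and Vip through the same 6 nuclei) and a median log2 ratio of -1.72. Without group 10, 17 of 20 were lower and 1 higher. Sst, Nts, Pomc, Tac1 and Gal were 11.4-fold, 9.38-fold, 8.17-fold, 7.71-fold and 6.19-fold lower. Neurons_1 differed between repeats for these genes as well, as for Sst with 94.6 and 101 CPM in repeat 1 and 239 and 275 CPM in repeat 2, and Neurons_2 (24.2 CPM) lay below all 4. Some of these transcripts were nonetheless present at the level found in glia, which do not make them. Pmch, the transcript of melanin-concentrating hormone, had a UMI in 40.0% of Neurons_2 nuclei, 42.8% of Neurons_1 and 39.5% of the pooled glia of that library, whose median depths were 2712, 4833.5 and 1871 UMIs. The shares in the same order were 18.2%, 20.7% and 20.3% for Avp, 8.45%, 9.53% and 8.32% for Oxt, and 13.8%, 15.3% and 14.9% for Hcrt (orexin). Neurons_2 was at or below the glia, or within 1 percentage point of them, for all 4 peptides. Whether these UMIs are background was not tested. Meis2 was found in 96.9% of Neurons_2 and 14.6% of the glia, and Cpa6 in 70.3% and 0.609%, so these genes did not share that pattern.

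**Figure D3:**
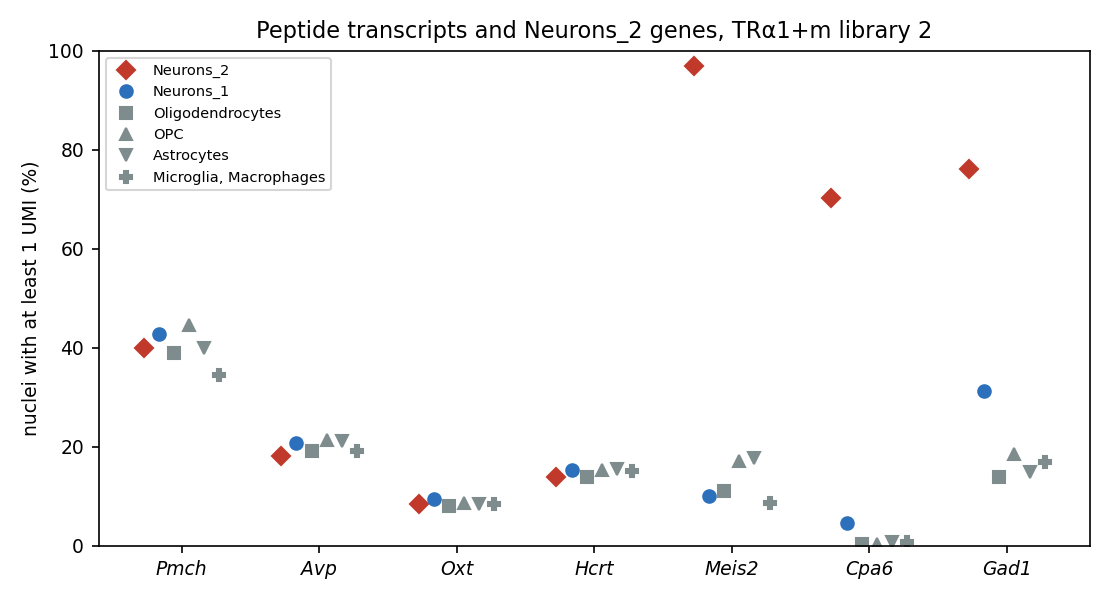
Share of nuclei (%) with at least 1 UMI of 4 hypothalamic peptide transcripts and of Meis2, Cpa6 and Gad1, in Neurons_2, Neurons_1 and the glial clusters of the second TRα1+m library. Pmch is found in 40.0% of Neurons_2 nuclei and 39.5% of glia, whereas Meis2 is found in 96.9% of Neurons_2 nuclei.

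Receptor and channel genes differed by subunit. Of 12 GABA-A receptor subunits that passed, 3 were higher and 5 lower. Gabrd, the delta subunit of extrasynaptic receptors, was at 77.8 CPM in Neurons_2 and at 0.591, 1.17, 1.07 and 1.68 CPM in the 4 Neurons_1 libraries (46.2-fold, 34.6 to 62.6). Gabra5 (315 against 103 CPM) and Gabra4 (124 against 46.4 CPM) were higher, while Gabrb1 (370.0 against 1423 CPM), Gabrg1, Gabrg3 and Gabrb2 were among the lower. Of 17 ionotropic glutamate receptor genes, 6 were higher and 4 lower. The NMDA receptor subunits Grin2a (993 against 316 CPM), Grin2b and Grin1 were among the higher, and Grik4, Grin3a and Grid1 were among the lower. Of the metabotropic receptors Grm4 (108 against 18.0 CPM) and Grm2 (23.5 against 6.46 CPM) were higher and Grm7 (489 against 1810.1 CPM) lower.

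Voltage-gated potassium channels were among the groups with more members up than down, with 9 of 21 higher and 3 lower and a median log2 ratio of 0.70. Kcnh3 was at 83.9 against 2.16 CPM (38.8-fold), and its highest Neurons_1 sub-cluster, somatostatin neurons, had 37.6 CPM. The A-type channel gene Kcnd2 was at 5940 against 2010 CPM, and Kcnb2 (4323 against 1034 CPM), Kcnh7 and Kcnq5 were higher too. Axon guidance genes went the other way, with 15 of 31 lower and 5 higher. Unc5c and Unc5d, the Slit genes Slit1 and Slit2, the semaphorin co-receptors Nrp1 and Nrp2 and Robo1 (223 against 1114 CPM) were lower. The 5 higher ones were Sema3e (204 against 14.7 CPM, 13.8-fold), Epha3 (547 against 67.1 CPM), Sema3c, Epha5 and Epha6. Among neurexins and their partners, Nrxn3 was at 13544 against 3629 CPM and Cntnap3 at 154 against 29.9 CPM, while Cntnap5a and Cntnap5b were lower and 10 of 16 were less than 2-fold apart.

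**Figure D4:**
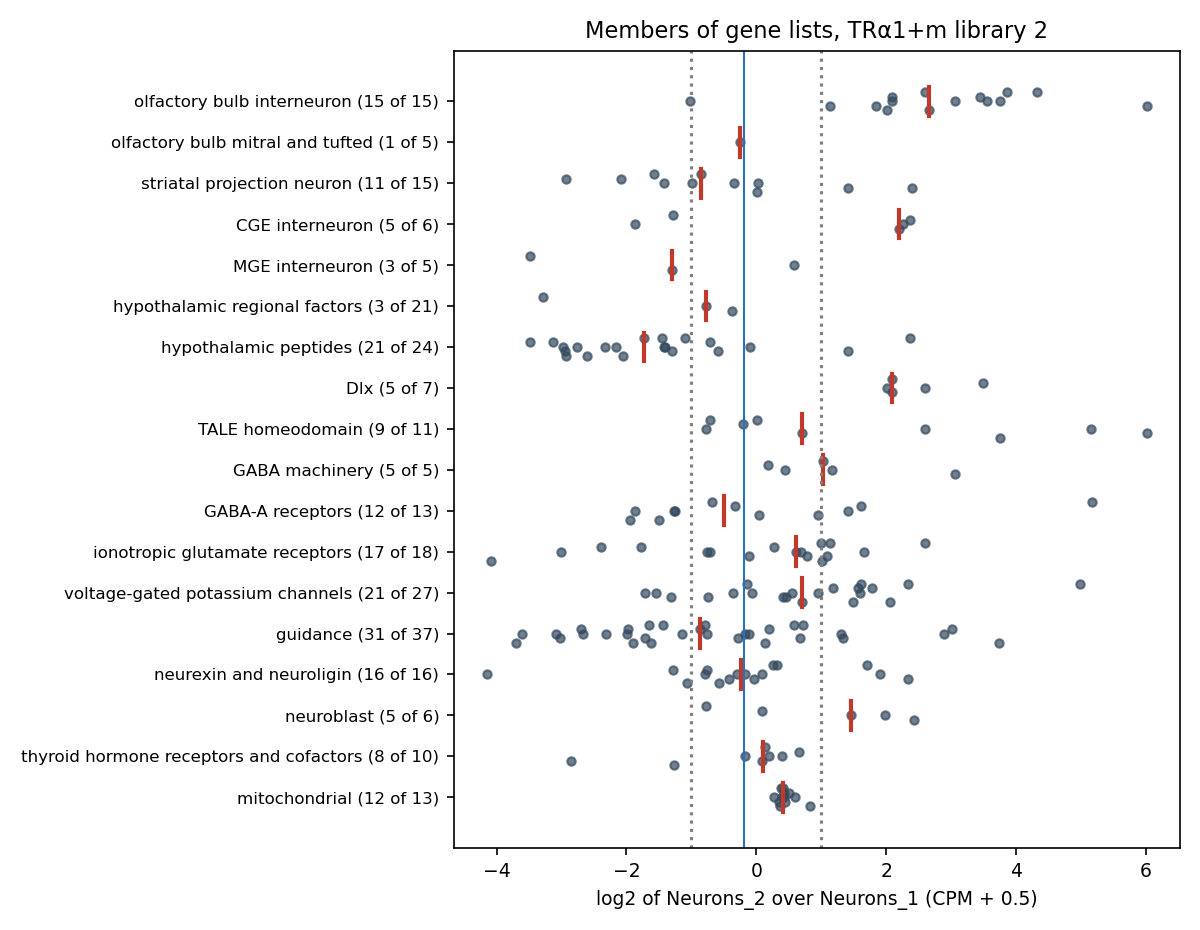
Log2 ratio of Neurons_2 over Neurons_1 (0.5 CPM added to both) for the members of 18 gene lists that had at least 10 CPM in either population, with the number that passed of all members in parentheses, the list median as a red bar, the median of all genes (-0.19) as a blue line and 2-fold differences as dotted lines. The olfactory bulb interneuron list has its median at 2.65 and the hypothalamic peptides at -1.72.

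Genes of immature neurons gave a mixed picture. Doublecortin (Dcx), a microtubule protein of migrating neuroblasts, was at 401 CPM against 101 CPM and found in 59.5% of nuclei, and Sox4 and Igfbpl1 were higher too. Sox11, however, was at 24.9 against 42.9 CPM, and of the proliferation genes Top2a had no UMI and Mki67 stood at 1.78 CPM (5 UMIs). Mature neuronal transcripts were present, with Snap25 at 2004 against 808 CPM and Rbfox3 at 437 against 199 CPM, while Elavl4 (26.3 against 147 CPM) and Stmn2 (76.1 against 191 CPM) were lower. Of the immediate early genes that passed, Nr4a1 (20.6 against 8.87 CPM), Npas4 and Egr1 were all higher, at low counts.

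The thyroid hormone receptor genes are given here as levels of the cluster and not of the genotype. Thrb, encoding the β receptor, was at 29.5 CPM in Neurons_2 and at 229.7, 230.1, 223 and 215 CPM in the 4 Neurons_1 libraries (7.30-fold lower). Thra, which carries the mutation in this library, was at 113 against 86.3 CPM and between 80.8 and 117 CPM over the Neurons_1 libraries, within their range. Of 8 receptor and cofactor genes that passed, Thrb and Rxrg were lower and the other 6 less than 2-fold apart. Of the hormone-responsive genes Klf9 was higher (64.3 against 26.1 CPM).

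Markers of glia were examined as signs of mixed nuclei. The 5 oligodendrocyte genes summed to 563 CPM in Neurons_2, 370 CPM in Neurons_1 and 22374.5 CPM in oligodendrocytes. The 5 astrocyte genes summed to 401 CPM against 192 CPM in Neurons_1 and 9033 CPM in astrocytes, led by Slc1a2 at 199 CPM. The 5 microglial genes summed to 94.2 against 98.5 CPM and 9088 CPM in microglia, and the 3 OPC genes to 37.3 against 20.2 CPM. No defining glial gene was at 0. Their part in the differences above was not tested. With all nuclei of 2 or more glial or vascular UMIs left out of both populations, 227 nuclei of Neurons_2 and 1390 of Neurons_1 remained. Of 10852 genes that then passed, 902 were higher and 2049 lower. As a check of the labelled sex, Xist had no UMI and the Y-linked Uty was at 142 CPM.

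The cluster was not uniform. Grouping its nuclei of that library by a nearest-neighbour graph gave 10 groups of 33 to 150 nuclei, and the genes below describe these groups, which were drawn from the same genes. Groups 6, 9 and 10 were recovered with an overlap (Jaccard index) of at least 0.939 when the resolution or the number of components was changed, whereas the best overlap of the others fell as low as 0.239, in group 3. Meis2 was at 1696 CPM or more in every group. Tshz1 ranged from 26.1 CPM in group 10 to 1049 CPM in group 8, and Cpa6 from no UMI in group 10 to 2397 CPM in group 1.

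Group 1 (150 nuclei) was led by the calcium-binding protein gene Cpne6 (379 against 71.4 CPM in the other nuclei) and had the most Synpr, at 2471 CPM. Group 3 (124 nuclei) was led by Kcnt2, Adam33 and Trdn (520.0 against 107 CPM). Group 4 (112 nuclei) was led by Tpbg (189 against 8.004 CPM, 23.6-fold), a cell-surface glycoprotein of granule cells of the bulb, and by Kcnh8, Crhbp and Npy, and had the most Gad1 (987 CPM). Group 5 (91 nuclei) was led by the cadherin gene Cdh8 (294 against 33.6 CPM), Abi3bp and Ankfn1. These groups shared high Cpa6, at 1075 to 2397 CPM.

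Group 6 (69 nuclei) stood farther apart. Kcnmb2, a potassium channel subunit, was at 1217 CPM against 18.0 CPM in the other nuclei (67.7-fold, 48.9 to 95.2) and found in 85.5% of the group, and Spon1 was at 1098 against 34.1 CPM. The group had the most calretinin (Calb2, 473 CPM, 68 UMIs in 36 nuclei) and the most Slc1a3 (890 CPM), with less Snap25 (806 CPM) than any other group, and 6.95 CPM of Cpa6. Its median depth was 1812 UMIs, the lowest of the 10.

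Group 10 (33 nuclei) was led by Vip (1140 against 6.30 CPM), Stac (705 against 2.59 CPM) and Trh (1235 against 20.8 CPM). Vip rested on 6 nuclei, the highest of which held 57 of 131 UMIs, whereas Trh was found in 21 nuclei. The group also had the most Th (130 CPM, in 13 nuclei), Pax6 (244 CPM), Gad2 (896 CPM) and Etv1 (426 CPM), and the least Meis2, Tshz1, Pbx3 and Adarb2 (43.5 CPM). Group 9 (42 nuclei) was led by Ndnf (1013 against 19.9 CPM, 51.0-fold), a secreted neurotrophic factor, with the kainate receptor gene Grik1 (3467 against 84.6 CPM) and Thsd7a, and had the least Synpr (299 CPM) and Gad1 (181 CPM). Group 8 (45 nuclei) was led by Foxp2 (1827 against 21.97 CPM, 83.1-fold), found in 23 nuclei, and by Sorcs3 and Adamtsl1, and had the most Tshz1, Pbx3 and Adarb2 (7058 CPM). Foxp2 with Tshz1 is listed here for the intercalated amygdala, but Penk had no UMI in that group.

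Groups 2 and 7 carried leading genes that belonged to single nuclei. Avp ranked first in group 2 (134 nuclei) at 906 against 130.1 CPM, yet 288 of its 320 UMIs came from 1 nucleus and it was found in 16.4% of the group and 18.5% of the other nuclei. Its next genes were Itga6, Rgs6 and the imprinted noncoding transcript Airn (770 against 246 CPM). In group 7 (52 nuclei), 710 of 736 UMIs of Pmch came from 1 nucleus. This group had a median of 7813 UMIs and 3065 genes, the deepest of the 10, with the highest Slc1a2 (370 CPM) and C1qa (50.6 CPM) of any group, but the lowest Mobp (20.2 CPM), an oligodendrocyte gene, and with Slc1a3 at 123 CPM, 1.02-fold the other nuclei. Whether it holds doublets was not tested. Without this group, 752 of 10820 genes were higher and 1608 lower.

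**Figure D5:**
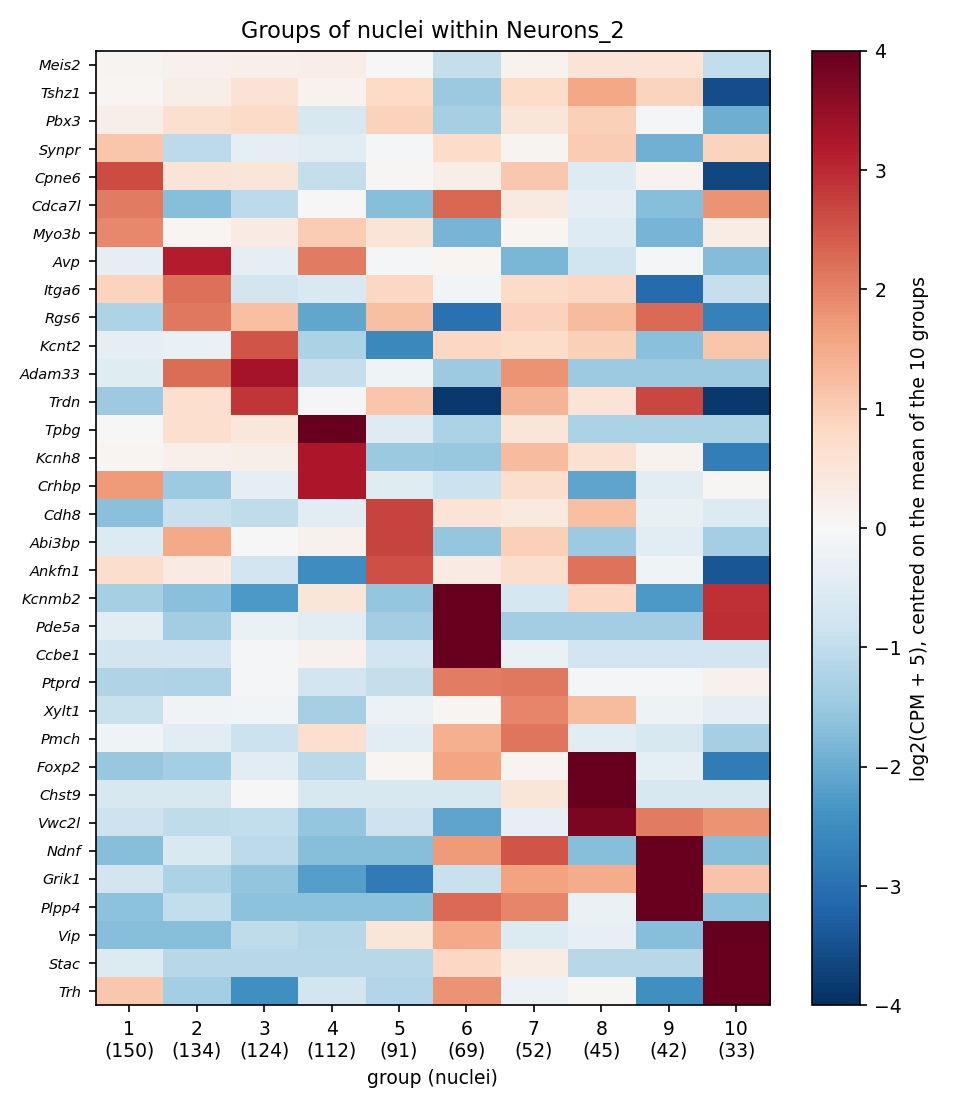
Level of the label markers and of 3 leading genes of each of the 10 groups of Neurons_2 nuclei, as log2(CPM + 5) centred on the mean of the groups and coloured within 4 log2 units either way, with the number of nuclei under each group. Groups 6, 8, 9 and 10 show blocks of leading genes, while Avp in group 2 and Pmch in group 7 come mostly from 1 nucleus each. White is the mean of the groups.

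The 12 nuclei from the other libraries resembled the cluster to unequal degrees. The 6 of TRα1+m 1 summed to 13157 UMIs with 43 of Meis2, 40 of Pbx3, 10 of Synpr and 13 of Cpa6, the last from 1 nucleus, and 4 of them carried 3 or 4 of the label markers. The 5 of wild type 1 held 11 UMIs of Meis2, 10 of Pbx3, 9 of Synpr and 4 of Cpa6 among 13862, and 1 carried 3 or 4 markers. The single nucleus of wild type 2 had 1116 UMIs, with 2 of Meis2, 1 of Synpr and 2 of Cpa6. Its barcode also occurred in TRα1+m 2, where it held 6986 UMIs with 16 of Meis2 and 3 of Cpa6 and is not among the annotated nuclei. Of the Neurons_2 barcodes of TRα1+m 2, 3 recurred among the barcodes of wild type 1, 3 of wild type 2 and 6 of TRα1+m 1, beside 52, 55 and 62 of all 11976 kept barcodes.

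Genes of the cluster were also followed in the glia of each library. Meis2 was at 91.1 CPM (84.9 to 97.7) in its pooled glia, against 60.4, 64.2 and 65.4 CPM in the glia of wild type 1, wild type 2 and TRα1+m 1, and Cpa6 at 3.33 CPM against 1.17, 0.782 and 0.863 CPM. Both genes were higher in the glia of that library than in those of the other 3. Synpr was not, at 79.4 CPM against 63.5, 81.1 and 75.9 CPM, and Tshz1 (52.3 against 44.3, 42.8 and 41.0 CPM) and Pbx3 (105 against 89.3, 91.6 and 96.0 CPM) differed less. Genes of mitral and tufted cells, the excitatory neurons of the olfactory bulb, were looked for in Neurons_1 after their values had been seen. In Neurons_1 of TRα1+m 2, 36 of 6824 nuclei (0.528%, 0.370 to 0.730) carried UMIs of at least 2 of Cdhr1, Tbx21, Eomes and Slc17a7, and 30 of the 36 were in Glutamatergic Neurons_3. None did among 9564, 8749 and 10619 Neurons_1 nuclei of wild type 1, wild type 2 and TRα1+m 1. The exact upper limits of these shares were 0.0386%, 0.0422% and 0.0347%. Eomes, a T-box factor of these cells, had 50 UMIs in Neurons_1 of TRα1+m 2 and 7, 0 and 5 in the other libraries, and Slc17a7 had 146 against 33, 19 and 22. Tbx21 did not follow this pattern, with 42 UMIs against 29, 27 and 40. The median depth of Neurons_1 was 4833.5 UMIs in TRα1+m 2 and 5227 UMIs in wild type 2, where none were found.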

How the data were processed

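Nuclei of adult mouse hypothalamus were profiled by droplet single-nucleus RNA sequencing in 4 libraries. The authors counted UMIs per gene, introns included, with Cell Ranger 5.0.1 against mm10, and deposited the raw counts with a table of clusters and sub-clusters, which was taken as given. Per the study's methods, nuclei with fewer than 900 counts or 700 genes, more than 5% mitochondrial counts or a doublet score of 0.18 or more were left out; no further doublet caller was run.

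UMIs were summed over Neurons_2 and Neurons_1 of the second TRα1+m library and divided by their total to give CPM (Python 3.11.15, pandas 2.3.3, scipy 1.17.1). Genes at 10 CPM or more in either population were compared, and a gene was called at a ratio of 2 or 0.5. With 1 library there is no test and no p-value. Intervals are exact (Poisson, Clopper-Pearson, conditional binomial), at 95%, and cover counting error only. List medians used CPM + 0.5. Genes were named as the 15 with the largest ratio of CPM + 5 in each direction among those at 50 CPM or more in either population, with predicted gene models left out; some items are not reported here. The members and gene lists were chosen with earlier results of these data known. Shares of nuclei were repeated on nuclei thinned to 1500 UMIs. Neurons_2 nuclei of that library were grouped on 2000 variable genes, 20 components and 15 neighbours with the Leiden method of igraph 0.11.9 at resolution 0.5. TMM factors came from edgeR 4.0.16 and RLE factors from DESeq2 1.42.0, without their tests. Gene positions are from the GENCODE annotation of GRCm38. Leaving out group 7, 8 or 10 in turn was an alternative chosen after seeing the data.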

Additional observations from a re-analysis of the deposited data

Results flagged for a closer look

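Barcodes that the authors left out of the second TRα1+m library also carried the label markers. Of 2581 such barcodes, 76 held UMIs of Meis2, Tshz1, Pbx3 and Synpr together (2.94%, 2.33 to 3.67), against 5 of 3250 in wild type 1, 0 of 3005 in wild type 2 and 5 of 2968 in TRα1+m 1. The 76 barcodes had a median of 6101 UMIs, against 2022 UMIs over all barcodes left out of that library. It was noted because these barcodes enter no comparison of the report. Whether they are doublets was not tested.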

How the results depend on the processing

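No paired analysis was possible because no test was made and nearly all Neurons_2 nuclei came from 1 library, and for the same reason no replicate could be left out. The counts of 763 higher and 1610 lower genes became 2284 and 7201 with no limit beyond 3 UMIs over both populations (22531 genes), and 432 and 623 at 50 CPM or more in either (4612 genes), where more and fewer genes were tested. The share of nuclei with all 4 label markers was 47.2%, 26.1% after thinning and 20.8% with at least 2 UMIs of each. RLE factors gave 1016 higher and 1284 lower genes. Under the remaining alternatives the higher genes numbered 744 to 1010 and the lower ones 1300 to 2049. The ratios of the 32 named genes stayed on their side of 2-fold under each of 14 settings. Most of these genes were named for the largest ratios in the same data, so their choice left little room for a change. Settings that alter only the limit cannot move a ratio. Counted by size alone, without regard to sign, 604 of 630 list medians stayed on their side of 2-fold. Some medians changed sign. Without group 7, with the limit of 10 CPM applied anew, the OPC median went from 1.02 (2 genes) to -0.016 (1 gene). The microglia median, over 4 genes in both, went from 0.149 to -0.034. That of metabotropic glutamate receptors went from 0.0069 to -0.0149. The endothelial median of -3.07 became 0.89 against GABA neurons and 0.54 without nuclei of 2 or more glial or vascular UMIs, and the mural median of -1.50 became 1.87 against GABA neurons; the cause was not tested. The median log2 ratio of the list CGE interneuron (caudal eminence genes), 2.20 in the main comparison, was -0.599 without group 10 when Vip was kept among its 5 members, a setting chosen after seeing the data. The number of groups was 7, 12 and 11 at resolution 0.3, at resolution 1 and with 10 components. Genes at a few UMIs, such as Drd1, are limited by depth, since 3 UMIs in Neurons_2 are 1.07 CPM.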

Other observations

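Among astrocytes of the second TRα1+m library, a sub-cluster that the authors named VLMC (36 nuclei) had more Meis2, at 586 CPM against 102 CPM in the astrocyte sub-cluster (5.75-fold, 4.27 to 7.61). For the other label markers the ratio could not be told from 1 at these counts, with Tshz1 at 0.829-fold (0.224 to 2.16), Pbx3 at 1.56-fold (0.616 to 3.28) and Synpr at 0.720-fold (0.0860 to 2.67). This sub-cluster was looked at after its values were seen.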
